A study of Mus musculus with 16 samples.

Results

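The transcripts of 9 cytokine genes, Il12a, Il12b, Il23a, Il27, Ebi3, Il15, Il6, Ifng and Ifnb1, were followed in subcapsular sinus macrophages (SSMs) and medullary sinus macrophages (MSMs) of mouse lymph nodes. They were taken by gene symbol from the 55423 rows of a count table, without regard to their values. All 9 had enough counts to be among the 21085 genes tested. Il12b was the most abundant member in MSMs and Ifng had the highest mean in SSMs, and both differed between the subsets in non-draining and in draining nodes. No member passed the threshold in edgeR between draining and non-draining nodes of the same subset, while DESeq2, a second tool, called 2 of them in SSMs.

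The samples came from male C57B/6 mice that carried MOC2 squamous carcinoma cells, implanted intradermally in the flank 2 weeks earlier. Live (7AAD-) CD45+ cells that were CD11b+ and CD169+ and lacked CD3, B220 and Ly6G were sorted into SSMs, which were CD11c- with low side scatter, and MSMs, which were CD11c+ with high side scatter. Tumor-draining lymph nodes (tdLNs) were the 2 inguinal nodes next to the tumors of 2 pooled mice. Non-draining lymph nodes (ndLNs) were 6 nodes (inguinal, axillary and brachial) from the opposite side of the same mice, so every ndLN sample also came from a tumor-bearing animal. The node types thus differ in anatomical site as well as in drainage of the tumor, and these cannot be told apart. Each of the 4 groups (SSM ndLN, SSM tdLN, MSM ndLN and MSM tdLN) had 2 libraries, from pools 1 and 2, and a library is therefore a pool of animals and not a single mouse.

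The IL-12 family consists of heterodimers built from shared parts. The p40 chain, encoded by Il12b, pairs with p35 (Il12a) to give IL-12, which drives interferon gamma production by NK cells and T cells, or with p19 (Il23a) to give IL-23, which acts on IL-17 and IL-22 producing lymphocytes. EBI3 pairs with p28 (Il27) to give IL-27 or with p35 to give IL-35. IL-15 sustains NK cells and memory T cells, IL-6 signals through gp130 (Il6st), interferon gamma activates macrophages, and interferon beta (Ifnb1) is a type I interferon made after nucleic acid sensing. Sinus macrophages line the lymph-filled spaces of the node and meet incoming antigen early.

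The 250 bases upstream of the transcription start, from RefSeq on GRCm38.p6, are shown for the 2 members that differed between the subsets in both nodes, Il12b and Ifng, and for Il6 and Ifnb1, whose regulation through NF-kappaB is a textbook example. They are written 5′ to 3′ on the gene's strand, with motif matches in capitals.
Il12b, chr11:44399813-44400062, + strand: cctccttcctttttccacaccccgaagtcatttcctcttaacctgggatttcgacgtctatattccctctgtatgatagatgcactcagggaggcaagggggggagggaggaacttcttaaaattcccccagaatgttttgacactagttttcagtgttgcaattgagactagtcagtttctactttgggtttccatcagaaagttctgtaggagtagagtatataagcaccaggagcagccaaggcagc
Ifng, chr10:118440796-118441045, + strand: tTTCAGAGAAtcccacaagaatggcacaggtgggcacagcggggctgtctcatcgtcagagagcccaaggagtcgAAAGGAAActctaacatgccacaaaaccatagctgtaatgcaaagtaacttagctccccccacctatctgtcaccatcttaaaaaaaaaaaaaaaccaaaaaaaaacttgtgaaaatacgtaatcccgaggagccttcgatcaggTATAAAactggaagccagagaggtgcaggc
Il6, chr5:30012864-30013113, + strand: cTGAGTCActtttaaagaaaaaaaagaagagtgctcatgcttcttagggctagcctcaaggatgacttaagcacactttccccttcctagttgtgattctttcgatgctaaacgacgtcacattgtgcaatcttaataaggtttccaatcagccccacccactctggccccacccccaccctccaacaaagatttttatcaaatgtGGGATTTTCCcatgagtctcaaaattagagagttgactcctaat
Ifnb1, chr4:88522795-88523044, - strand: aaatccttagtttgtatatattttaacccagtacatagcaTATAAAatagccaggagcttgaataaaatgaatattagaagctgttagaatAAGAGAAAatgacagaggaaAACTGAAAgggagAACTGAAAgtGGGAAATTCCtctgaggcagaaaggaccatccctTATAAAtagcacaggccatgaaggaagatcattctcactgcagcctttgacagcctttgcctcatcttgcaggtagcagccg

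Both strands were searched for 5 motifs. The NF-kappaB letters (GGG, any 3 bases, then TTCC) occurred once in the Ifnb1 and once in the Il6 window and in 4.65% of all 32851 promoter windows of that length. The IRF letters AANNGAAA, found in 21.3% of windows, occurred 3 times in Ifnb1, where the third match ends 2 bases before the NF-kappaB match, and once in Ifng. The AP-1 letters TGANTCA (6.75% of windows) were present in Il6, the GAS letters TTCNNNGAA (7.02%) in Ifng, and the TATA box letters TATAAA (12.4%) in Ifng and Ifnb1. The Il12b window held none of these letter patterns, and neither did the Ebi3 window or the 2 Il12a windows. These matches describe the sequence only.

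Each library held between 42972328 and 48130352 counts, and values are given as CPM, counts scaled by TMM to a common library total. A floor of 3 counts corresponded to 0.0623 to 0.0698 CPM before normalization, which covers counting error only. The surface marker of the sort, CD169 (Siglec1), reached 8.47 to 70.0 CPM in SSMs and 0.795 to 5.96 CPM in MSMs, and CD11c (Itgax) 63.6 to 149 CPM in SSMs and 316 to 418 CPM in MSMs. The 10 macrophage markers together gave 5952 to 22412 CPM in SSMs and 4732 to 5358 CPM in MSMs. Markers of other cells were present as well. The 10 NK cell markers summed to 1898 to 3057 CPM in SSMs and 236 to 331 CPM in MSMs, the 10 markers of innate-like T cells and innate lymphoid cells to 550 to 1591 and 32.7 to 65.2 CPM, and the 11 T cell markers to 1018 to 2535 and 492 to 824 CPM. The 8 cDC1 markers summed to 311 to 649 CPM in SSMs and 3696 to 4905 CPM in MSMs, and the 10 mature dendritic cell markers to 2538 to 4426 and 8796 to 9506 CPM. The 9 mast cell and basophil markers summed to 372 to 2415 CPM in SSMs and 312 to 690 CPM in MSMs. Single genes carried a large part of each of these MSM sums. Kit alone gave 269 to 614 CPM in MSMs, and Cd8a gave 357 to 605 CPM of the T cell sum. In MSMs Lyz2 gave 3998 to 4636 CPM of the macrophage sum, and Klrk1 183 to 264 CPM of the NK cell sum. Il7r gave 23.4 to 38.5 CPM in the innate-like list, Naaa 1723 to 2872 CPM in the cDC1 list and Cd83 3020 to 5447 CPM in the mature dendritic cell list. In SSMs Lyz2 gave 5044 to 19309 CPM. Of the 9 mast cell and basophil markers, 7 were called higher in SSMs from ndLNs (7.33% of all genes). In tdLNs 6 were higher (5.55%) and Kit was lower (3.82%). Cpa3, for example, reached 36.1 to 562 CPM in SSMs and 0.0256 to 0.330 CPM in MSMs. In these bulk samples, a difference in the number of cells of one type cannot be told apart from a difference in RNA per cell.

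Levels of different genes were compared per length, as CPM per kilobase of exon (RPKM). In SSMs the mean RPKM over 4 libraries was 45.0 for Ifng, 27.9 for Il12b, 20.8 for Il6, 11.8 for Il15 and 11.5 for Ebi3, and these neighbors overlapped in their ranges. Il27, at 3.12 RPKM, lay below Ebi3 without overlap, and was followed by Ifnb1 (1.08 RPKM), Il23a (0.475 RPKM) and Il12a (0.349 RPKM), which overlapped in turn. In MSMs Il12b stood alone at 392 RPKM. Ebi3 (22.0 RPKM), Il6 (15.2 RPKM) and Il15 (14.8 RPKM) formed a middle tier, and Il27 (3.85 RPKM), Ifng (1.39 RPKM), Il23a (1.32 RPKM), Il12a (0.643 RPKM) and Ifnb1 (0.103 RPKM) a low one. Only the steps below Il12b and below Il15 separated neighbors without overlap in MSMs.

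**Figure D1:**
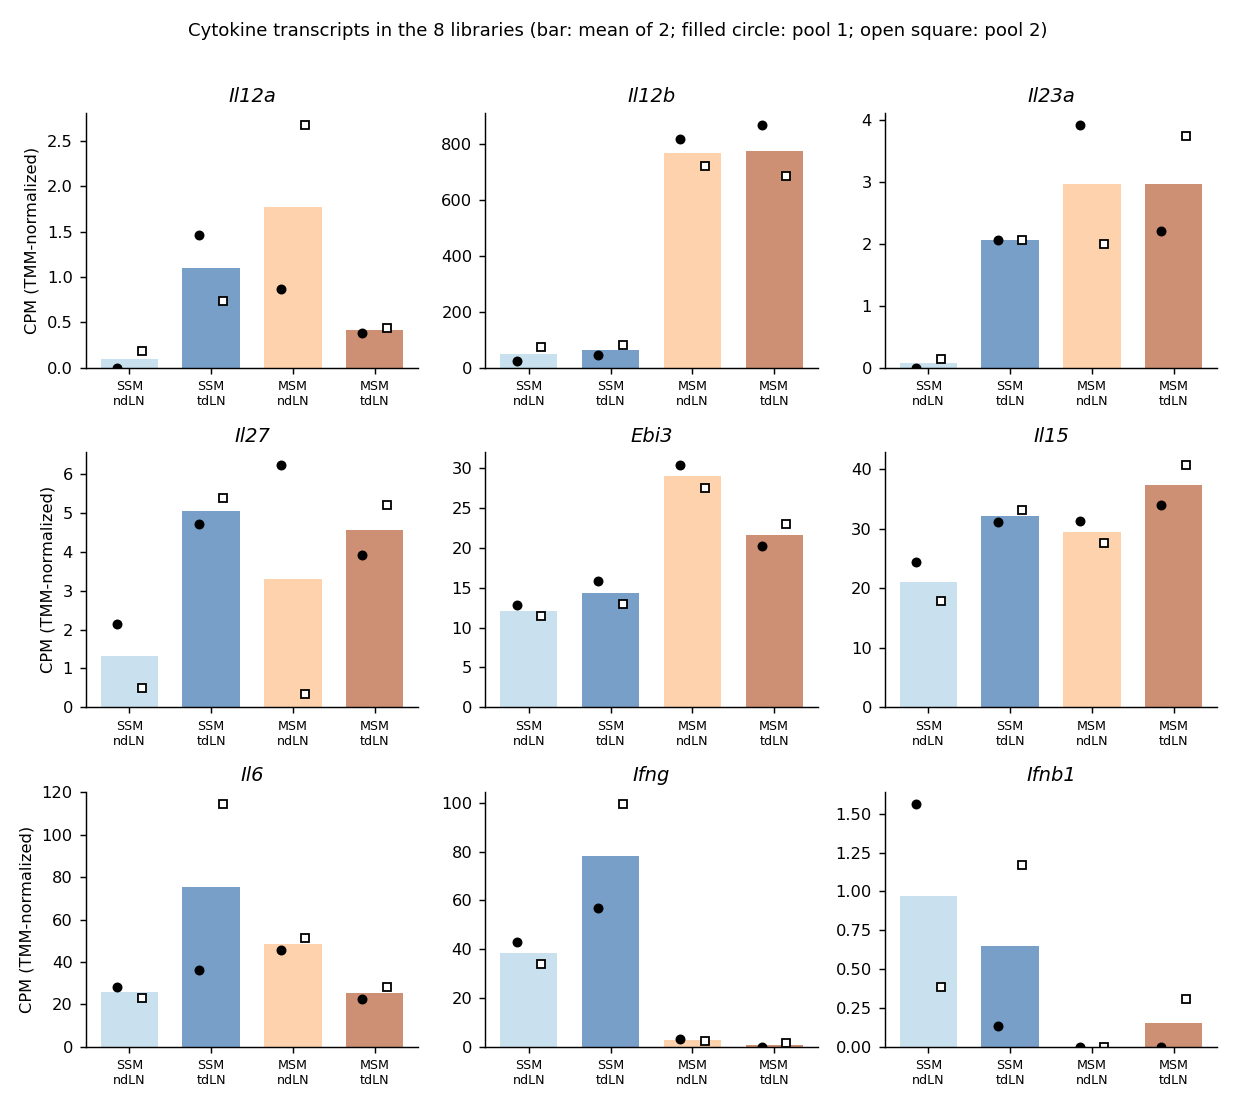
CPM of each cytokine in the 8 libraries, with a panel and a linear axis per gene. Bars are means of 2 libraries, filled circles are pool 1 and open squares pool 2. Il12b lay at 683 CPM or more in every MSM library and at 80.0 CPM or less in every SSM library, whereas Ifng lay at 34.0 CPM or more in SSMs and 3.08 CPM or less in MSMs.

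To determine how SSMs differ from MSMs outside the drainage of the tumor, the subsets were compared in ndLNs. Of the 9 members, Ifng was higher in SSMs and Il12b, Il23a and Ebi3 were lower (adjusted p-value under 0.01 in the quasi-likelihood test of edgeR, with the Benjamini-Hochberg method over all genes). Over all genes tested, 14.0% were called in this comparison, 7.33% higher and 6.65% lower in SSMs. At an unadjusted p under 0.05 there were 6 members (35.3% of all genes), and 8 of 9, all but Il27, did not overlap between the subsets (57.2% of all genes). The median log2 fold change was -1.20 over the members and 0.09 over all genes. In tdLNs, 2 members were called, Ifng higher and Il12b lower, against 9.38% of all genes (5.55% higher, 3.82% lower). There, 4 had an unadjusted p under 0.05 (27.8% of all genes) and 7 did not overlap (56.6%). Over both nodes, Ifng was higher and Il12b and Ebi3 were lower, against 15.4% of all genes (8.38% higher, 7.05% lower), and 5 had an unadjusted p under 0.05 (38.0% of all genes). These 3 were also the members whose 4 SSM libraries did not overlap with the 4 MSM libraries, a pattern seen in 26.6% of all genes. Libraries of a group are pools numbered in the labels, apart from SSM tdLN replicate 1, whose label has no number, and each group has only 2. Pool is a term of the model, so the p-values rest on the spread left after the model's terms. This spread is estimated over all 8 libraries. The comparisons share libraries, and the SSM ndLN libraries enter both the ndLN comparison and the comparison of nodes in SSMs.

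Il12b, the gene for p40 (ENSMUSG00000004296, chromosome 11, 44400063 to 44414033, + strand), gave 22.5 and 73.6 CPM in SSMs from ndLNs and 43.7 and 80.0 CPM in SSMs from tdLNs, for pools 1 and 2. In MSMs the values were 816 and 718 CPM in ndLNs and 866 and 683 CPM in tdLNs. Every MSM library was above every SSM library, and among SSMs pool 2 was the higher one in both nodes. The difference was 16.0-fold between the means in ndLNs (log2 fold change -4.13 ± 0.49 SE, n = 2, edgeR adjusted p = 8.84e-04) and 12.5-fold in tdLNs (-3.74 ± 0.48, n = 2, edgeR adjusted p = 0.00174). Over both nodes, with pool and node type in the model, the log2 fold change was -3.94 ± 0.36 (edgeR adjusted p = 1.41e-04). The call in ndLNs was lost without MSM ndLN replicate 1 (adjusted p = 0.0106), and that in tdLNs without SSM tdLN replicate 1 (0.0361), SSM tdLN replicate 2 (0.023) or MSM tdLN replicate 1 (0.0146). The log2 fold change in ndLNs was -3.42 without SSM ndLN replicate 1 and -5.06 without SSM ndLN replicate 2, and that in tdLNs -3.15 without MSM tdLN replicate 1.

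The 10 mature dendritic cell markers, a state in which p40 is known to be produced, had a higher sum in every MSM library. Of the 10, 4 were called in ndLNs and 9 in tdLNs, all lower in SSMs, against 6.65% and 3.82% of all genes, and none was at 0 in any group. Relb, the marker called in neither node, had means of 308 CPM in SSMs and 279 CPM in MSMs from ndLNs. Within SSMs from ndLNs the mature dendritic cell markers summed to 3025 CPM in pool 1 and 4426 CPM in pool 2, the pool with more Il12b. The pool with more Il12b also had the higher sum in SSMs from tdLNs and in MSMs from ndLNs. MSMs from tdLNs went the other way. Their sums were 9067 CPM in pool 1 and 9182 CPM in pool 2, beside 866 and 683 CPM of Il12b. The cDC1 markers were also lower in SSMs, with 7 of 8 called in ndLNs (6.65% of all genes) and 8 of 8 in tdLNs (3.82%). The part of either list in the Il12b difference was not tested.

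Ebi3 (ENSMUSG00000003206, chromosome 17, 55952640 to 55957022, + strand), the gene for the beta chain of IL-27 and IL-35, gave 12.8 and 11.4 CPM in SSMs and 30.5 and 27.6 CPM in MSMs from ndLNs. In tdLNs the values were 15.8 and 13.0 CPM in SSMs and 20.3 and 23.1 CPM in MSMs. The 4 SSM libraries lay below the 4 MSM libraries without overlap, but with a smaller gap in tdLNs. Ebi3 was 2.39-fold lower in SSMs from ndLNs (-1.26 ± 0.20, edgeR adjusted p = 0.00336), and the value in tdLNs was -0.60 ± 0.20 (edgeR adjusted p = 0.0941). Over both nodes the log2 fold change was -0.93 ± 0.19 (edgeR adjusted p = 0.00743). The ndLN call was lost on leaving out any 1 of the SSM ndLN, MSM ndLN or SSM tdLN libraries, with adjusted p-values of 0.0111 to 0.0314. That over both nodes was lost without any 1 of the SSM ndLN or MSM ndLN libraries, SSM tdLN replicate 2 or MSM tdLN replicate 2 (0.0224 to 0.0343). A gene on the opposite strand, Gm16712, shares 23.4% of the exon bases of Ebi3 and had 18 to 122 counts, against 566 to 1238 counts for Ebi3; without a stated strand setting, their reads cannot be told apart in the shared part.

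Among the alpha chains, Il23a (ENSMUSG00000025383, chromosome 10, 128296139 to 128298752, - strand), which encodes the p19 chain of IL-23, had 0 and 7 counts in SSMs from ndLNs, or 0 and 0.141 CPM. SSMs from tdLNs had 92 and 90 counts, which is 2.06 CPM in both pools. MSMs had 3.92 and 2.01 CPM in ndLNs and 2.21 and 3.74 CPM in tdLNs. The low libraries were thus the SSMs from ndLNs, while SSMs from tdLNs reached the lower edge of the MSM range. Il23a was lower in SSMs than in MSMs from ndLNs (-5.38 ± 1.04, edgeR adjusted p = 0.00493), and the value in tdLNs was -0.54 ± 0.53 (edgeR adjusted p = 0.571). The ndLN call was lost without SSM ndLN replicate 1 (adjusted p = 0.0653), SSM ndLN replicate 2 (0.0366), SSM tdLN replicate 1 (0.0132), SSM tdLN replicate 2 (0.013) or MSM ndLN replicate 1 (0.0318). The log2 fold change was -4.30 without SSM ndLN replicate 1, -4.61 without MSM ndLN replicate 1 and -6.06 without MSM ndLN replicate 2; without SSM ndLN replicate 2, the SSM library that is left had 0 counts and the fitted value (-10.06) is no bound. A cut-off of 100 on the mean normalized count per lane, tried as an alternative, removes Il23a, whose mean was 45.7.

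Il12a (ENSMUSG00000027776, chromosome 3, 68690644 to 68698547, + strand), the p35 chain of IL-12, was also near 0 in SSMs from ndLNs, with 0 and 9 counts. SSMs from tdLNs had 65 and 32 counts, MSMs from ndLNs 34 and 120, and MSMs from tdLNs 16 and 20. In CPM these were 0 and 0.182, 1.46 and 0.734, 0.872 and 2.67, and 0.388 and 0.440. SSMs lay below MSMs in ndLNs and above them in tdLNs, in each case without overlap. Neither difference passed the threshold (-4.31 ± 1.11, edgeR adjusted p = 0.0204 in ndLNs, and 1.43 ± 0.92, adjusted p = 0.363 in tdLNs); a DESeq2 Wald test called the ndLN difference.

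Il27 (ENSMUSG00000044701, chromosome 7, 126589010 to 126594941, - strand), the p28 chain of IL-27, varied more between pools than between subsets in ndLNs. It gave 2.15 and 0.485 CPM in SSMs and 6.26 and 0.334 CPM in MSMs from ndLNs, so pool 1 was the higher one in both subsets. In tdLNs the values were 4.73 and 5.39 CPM in SSMs and 3.93 and 5.22 CPM in MSMs. The groups overlapped in both nodes (-1.20 ± 0.98, edgeR adjusted p = 0.424 in ndLNs, and 0.12 ± 0.74, adjusted p = 0.965 in tdLNs). Apobr, on the opposite strand, shares 10.1% of the exon bases of Il27 and had 757 to 3128 counts against 15 to 244 for Il27, so an unknown part of these reads could belong to either gene.

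Set against each other per length, the chains of 1 heterodimer were far from equal in RNA. Il12b exceeded Il12a 25.9 to 350 times in the 3 SSM libraries with any Il12a count (median 94.3) and 232 to 1932 times in the 4 MSM libraries (median 1076). Il12b exceeded Il23a 24.2 to 595 times in 3 SSM libraries and 209 to 449 times in MSMs. The ratio of Ebi3 to Il27 was 2.13 to 20.9 in SSMs and 3.91 to 73.0 in MSMs, and that of Ebi3 to Il12a 16.0 to 92.7 in 3 SSM libraries and 15.2 to 77.2 in MSMs. The highest Ebi3 to Il27 ratio in each subset was that of pool 2 from ndLNs, where Il27 was lowest. These are ratios of transcripts, with no test, and say nothing of secreted protein.

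**Figure D2:**
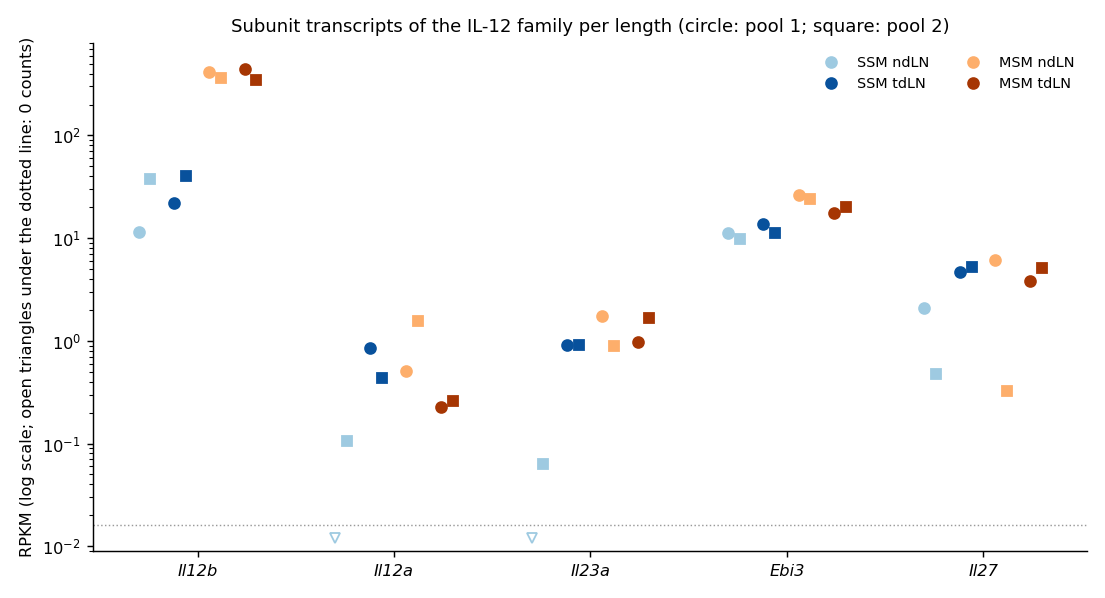
RPKM, on a log axis, of the genes for the chains of the IL-12 family in each library. Colors mark the 4 groups, circles pool 1 and squares pool 2; open triangles under the dotted line are libraries with 0 counts and have no position on the axis. Il12b lies between 11.4 and 440 RPKM, and Il12a and Il23a at 1.75 RPKM or less in every library.

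Il15 (ENSMUSG00000031712, chromosome 8, 82331632 to 82403222, - strand), the NK cell and memory T cell survival factor, lay between 17.8 and 40.8 CPM in all 8 libraries. SSMs had 24.4 and 17.8 CPM in ndLNs and 31.2 and 33.2 CPM in tdLNs, and MSMs had 31.3 and 27.5 CPM in ndLNs and 34.1 and 40.8 CPM in tdLNs. Within each node, SSMs were below MSMs without overlap, but by less than the threshold required (-0.48 ± 0.22, edgeR adjusted p = 0.162 in ndLNs, and -0.22 ± 0.21, adjusted p = 0.57 in tdLNs).

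Il6 (ENSMUSG00000025746, chromosome 5, 30013114 to 30019981, + strand), the inflammatory cytokine that signals through gp130, gave 28.4 and 23.0 CPM in SSMs and 45.6 and 51.1 CPM in MSMs from ndLNs. In tdLNs it gave 36.4 and 114 CPM in SSMs and 22.7 and 28.3 CPM in MSMs. SSMs were thus the lower subset in ndLNs and the higher one in tdLNs, and the SSM library of pool 2 from tdLNs was the highest of all 8. Neither difference passed the threshold (-0.88 ± 0.41, edgeR adjusted p = 0.175 in ndLNs, and 1.47 ± 0.42, adjusted p = 0.0506 in tdLNs), though a DESeq2 Wald test called the second. In edgeR, the log2 fold change in tdLNs was 0.54 without SSM tdLN replicate 2 and 2.14 without SSM tdLN replicate 1.

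Ifng (ENSMUSG00000055170, chromosome 10, 118441046 to 118445892, + strand), the type II interferon, gave 42.8 and 34.0 CPM in SSMs from ndLNs and 57.0 and 99.4 CPM in SSMs from tdLNs. MSMs had 3.08 and 2.36 CPM in ndLNs and 0.0727 and 1.70 CPM in tdLNs, where the first value stands for 3 counts. No MSM library came near the SSM range. The means differed 14.1-fold in ndLNs (3.86 ± 0.49, edgeR adjusted p = 0.00121) and 88.5-fold in tdLNs (6.40 ± 0.57, edgeR adjusted p = 3.56e-04), and over both nodes the log2 fold change was 4.96 ± 0.59 (edgeR adjusted p = 5.40e-04). The ndLN call was lost without MSM ndLN replicate 1 (adjusted p = 0.0199) or replicate 2 (0.0307). The tdLN call held without any 1 library, but its log2 fold change was 5.59 without MSM tdLN replicate 1 and 9.92 without MSM tdLN replicate 2, which leaves the MSM library of 3 counts. Over both nodes it was 5.56 without MSM ndLN replicate 1. Gm49751, on the same strand, shares 25.9% of the exon bases of Ifng, and had 0 to 104 counts.

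The NK cell markers, a cell type known for interferon gamma, were more abundant in the same libraries. In each node 9 of 10 were called higher in SSMs, against 7.33% of all genes in ndLNs and 5.55% in tdLNs. Of these markers, Ncr1 (the receptor NKp46) reached 97.6 to 144 CPM in SSMs and 1.10 to 2.62 CPM in MSMs. In SSMs from tdLNs, pool 2 exceeded pool 1 in both Ifng and the marker sum (2715 and 1898 CPM). In SSMs from ndLNs, pool 1 exceeded pool 2 in both, with marker sums of 3057 and 2503 CPM and an Ifng of 42.8 and 34.0 CPM. Between the nodes, Ifng of SSMs was higher in tdLNs (57.0 and 99.4 CPM), while the marker sums overlapped. The T cell marker Cd3e gave 75.0 to 151 CPM in SSMs and 2.14 to 16.3 CPM in MSMs, although CD3+ cells were excluded in the sort. Of the 11 T cell markers, 10 were called higher in SSMs in ndLNs (7.33% of all genes) and 9 in tdLNs (5.55%). Cd8a was called lower in both, with means of 24.4 CPM in SSMs and 496 CPM in MSMs from ndLNs. The part of these cells in the Ifng difference was not tested.

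**Figure D3:**
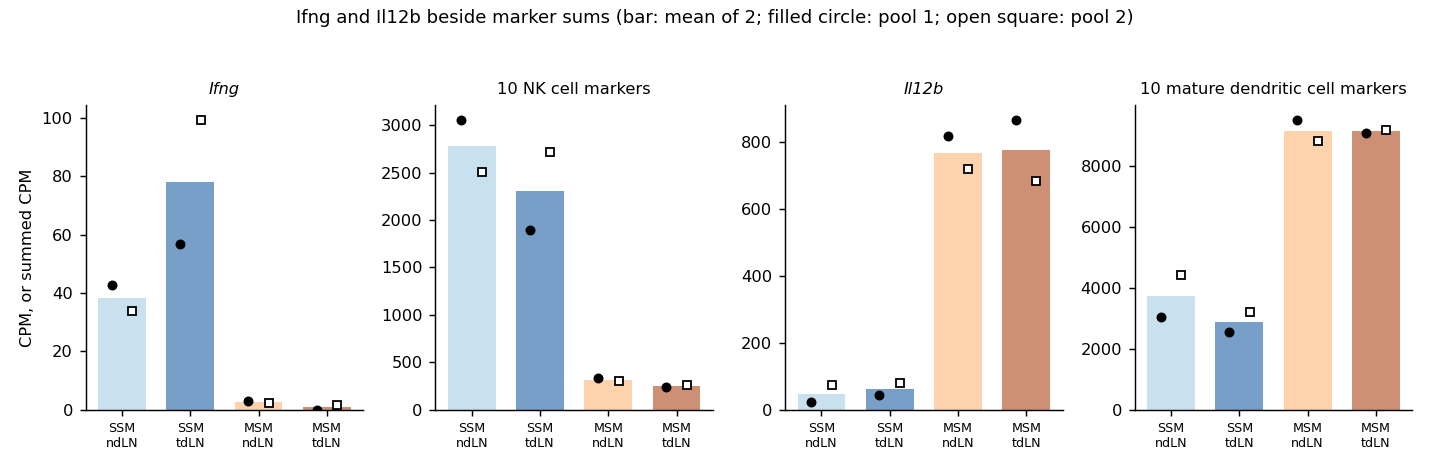
CPM of Ifng and Il12b beside the summed CPM of 10 NK cell markers and 10 mature dendritic cell markers in the 8 libraries, on linear axes. Bars are means of 2 libraries, filled circles pool 1 and open squares pool 2. Ifng and the NK cell markers were high in SSM libraries, and Il12b and the mature dendritic cell markers in MSM libraries.

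Ifnb1 (ENSMUSG00000048806, chromosome 4, 88522025 to 88522774, - strand), a type I interferon, was close to the limit of detection. It had 85 and 19 counts in SSMs from ndLNs, 6 and 51 in SSMs from tdLNs, 0 in both MSM libraries from ndLNs, and 0 and 14 in MSMs from tdLNs. The SSM mean in ndLNs, from 1.56 CPM in pool 1 and 0.384 CPM in pool 2, was 13.5-fold above a floor of 3 counts per MSM library. The difference between the subsets in ndLNs did not pass the threshold (edgeR adjusted p = 0.117). A DESeq2 Wald test called this difference. In tdLNs the groups overlapped (1.98 ± 1.67, edgeR adjusted p = 0.508).

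**Figure D4:**
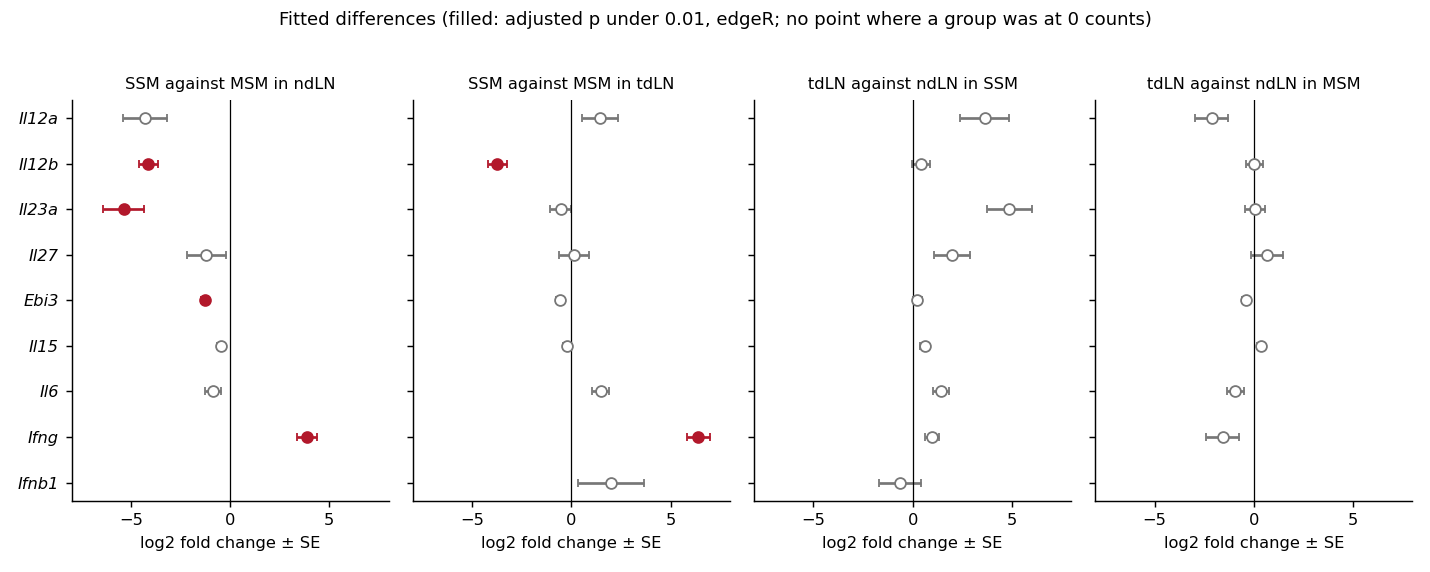
Log2 fold change with SE for each member in 4 comparisons, from edgeR's quasi-likelihood fit on 8 libraries. Filled red points passed an adjusted p-value of 0.01, and no point is drawn where 1 group had 0 counts in both libraries (Ifnb1). The filled points are Il12b, Il23a, Ebi3 and Ifng in ndLNs and Il12b and Ifng in tdLNs.

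To ask how these cytokines differ between the node types, tdLNs were compared with ndLNs within each subset. The comparison holds both drainage of the tumor and node site, since only the ndLNs included axillary and brachial nodes. In SSMs 0 of 9 members were called by edgeR, against 3.16% of all genes. At an unadjusted p under 0.05 there were 5 (23.0% of all genes), namely Il12a, Il23a, Il15, Il6 and Ifng, all with higher values in tdLNs, and a DESeq2 Wald test called Il6 and Il23a. Il23a came closest in edgeR (4.88 ± 1.12, n = 2, adjusted p = 0.0263), the 1 member under 0.05 where 9.65% of all genes were. Il6 gave 1.42 ± 0.42 (edgeR adjusted p = 0.0803), Il12a 3.63 ± 1.24 (0.109), Il15 0.61 ± 0.21 (0.135) and Ifng 0.97 ± 0.36 (0.158). The values of tdLNs and ndLNs did not overlap for 7 of 9 members, against 51.9% of all genes, and the exceptions were Il12b and Ifnb1.

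Sums of marker lists in SSMs also differed between the nodes. The T cell markers summed to 2308 to 2535 CPM in ndLNs and 1018 to 1170 CPM in tdLNs, and the innate-like T and innate lymphoid cell markers to 1253 to 1591 and 550 to 601 CPM, whereas the macrophage markers summed to 5952 to 9131 CPM in ndLNs and 15328 to 22412 CPM in tdLNs, with 6 of 10 called higher in tdLNs. The 9 mast cell and basophil markers summed to 1734 to 2415 CPM in ndLNs and 372 to 706 CPM in tdLNs, the 7 cDC2 markers to 597 to 658 and 1586 to 1733 CPM, and the 7 neutrophil markers to 78.8 to 151 and 269 to 471 CPM. Over all genes, 3.16% were called between the nodes in SSMs, in either direction. The part of these lists in the values of SSMs by node was not tested.

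In MSMs 0 of 9 members were called by edgeR and 0 by DESeq2, against 0.0237% of all genes in edgeR. At an unadjusted p under 0.05 there was 1, Il12a (-2.11 ± 0.83, edgeR adjusted p = 0.355), against 11.9% of all genes. Il6 gave -0.93 ± 0.42 (edgeR adjusted p = 0.436), Ebi3 -0.41 ± 0.19 (0.453) and Ifng -1.57 ± 0.82 (0.506), and Il12b differed by 0.03 ± 0.42 (adjusted p = 1). For 5 of 9 members, tdLNs and ndLNs did not overlap (38.5% of all genes).

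The difference between these node effects was tested as the interaction of subset and node. By edgeR 0 of 9 members were called (0.0379% of all genes), and 4 had an unadjusted p under 0.05 (12.3%). These were Il12a (5.74 ± 1.49, edgeR adjusted p = 0.126), Il6 (2.35 ± 0.59, 0.139), Il23a (4.84 ± 1.30, 0.139) and Ifng (2.54 ± 0.89, 0.287), each with the more positive node difference in SSMs. DESeq2 called Il6 and Il23a. Over both subsets together, 0 members differed between tdLNs and ndLNs by edgeR or by DESeq2 (0.242% of all genes in edgeR), and 1, Il15, had an unadjusted p under 0.05, against 20.2% of all genes (0.48 ± 0.16, edgeR adjusted p = 0.15).

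**Figure D5:**
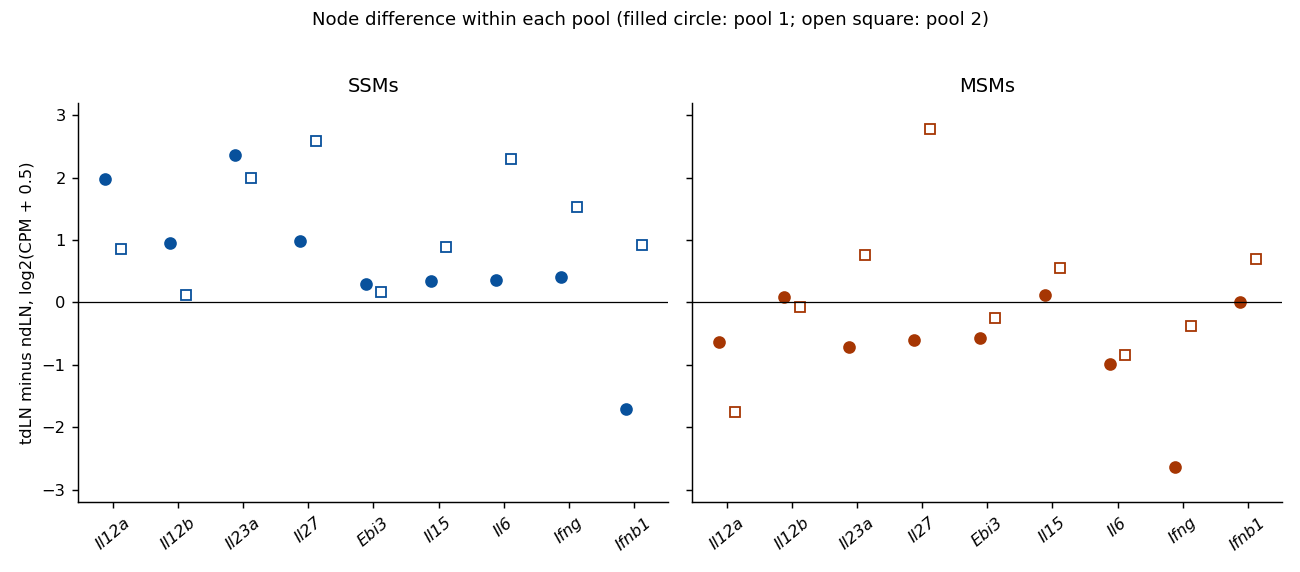
Difference between tdLN and ndLN of the same pool, in log2(CPM + 0.5), for each member in SSMs (left) and MSMs (right). Filled circles are pool 1, open squares pool 2, and the line marks 0. Il12a, Ebi3, Il6 and Ifng lie above 0 in both pools of SSMs and below 0 in both pools of MSMs, and Ifnb1 in SSMs has its pools on opposite sides.

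The receptors for these cytokines were mostly more abundant in SSMs. Of 13 receptor genes, 8 were called higher and 1 lower in SSMs from ndLNs, and in tdLNs 8 were higher. Over all genes, 7.33% were higher and 6.65% lower in ndLNs, and 5.55% were higher in tdLNs. The median log2 fold change was 1.04 in ndLNs and 1.01 in tdLNs, against 0.09 and 0.02 over all genes. Il2rb, the shared beta chain of the IL-2 and IL-15 receptors, had a mean of 2912 ± 196 CPM (SD, n = 2) in SSMs and 74.6 ± 17.1 CPM in MSMs from ndLNs (5.30 ± 0.19, edgeR adjusted p = 1.45e-05). Il23r, the specific chain of the IL-23 receptor, gave 166 ± 40.8 and 3.37 ± 2.04 CPM (5.60 ± 0.33, edgeR adjusted p = 3.92e-05), and Il27ra gave 207 and 12.2 CPM (4.09 ± 0.25, 4.56e-05). Il12rb1, which serves both IL-12 and IL-23, gave 40.2 and 1.46 CPM (4.77 ± 0.38, 1.36e-04), while Il6st was the receptor gene lower in SSMs (-1.55 ± 0.19, 8.97e-04). Between the nodes, 2 receptor genes were lower in SSMs from tdLNs, Il2rb (-1.48 ± 0.16, edgeR adjusted p = 0.0026) and Il23r (-1.72 ± 0.25, 0.00758), where 3.16% of all genes were called in either direction. Il23r is also among the innate-like T and innate lymphoid cell markers that were more abundant in these SSM libraries.

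Of 13 genes of JAK-STAT signaling, 6 were higher in SSMs from ndLNs (7.33% of all genes) and the other 7 were not called. The higher ones included Stat4, the transducer of IL-12 (138 CPM in SSMs and 21.3 CPM in MSMs, 2.70 ± 0.22, edgeR adjusted p = 1.36e-04), and the feedback inhibitor Socs1 (2.13 ± 0.24, 6.98e-04). In tdLNs 2 were higher, Socs3 (1.41 ± 0.12, 3.35e-04) and Jak1 (1.12 ± 0.16, 0.00244), and Jak2 was lower (-0.93 ± 0.15, 0.00456), against 5.55% of all genes higher and 3.82% lower. Within SSMs, Stat2, part of the type I interferon response complex, was higher in tdLNs (1.28 ± 0.18, edgeR adjusted p = 0.00617) and Socs1 lower (-1.63 ± 0.24, 0.00698), where 3.16% of all genes were called in either direction. The median of the 13 genes was 0.43 in ndLNs and 0.37 in tdLNs for SSMs against MSMs, beside 0.09 and 0.02 over all genes.

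Of 17 transcription factors linked to cytokine production, 8 were higher and 3 lower in SSMs from ndLNs, and 5 were higher and 3 lower in tdLNs. Over all genes, 7.33% were higher and 6.65% lower in ndLNs, and 5.55% and 3.82% in tdLNs. The medians of the list were 0.61 and 0.30, beside 0.09 and 0.02 over all genes. The 3 lower factors were the same in both nodes. In ndLNs, Irf5, which acts on inflammatory cytokine genes in myeloid cells, differed by -2.27 ± 0.13 (edgeR adjusted p = 3.92e-05), Batf3, the cDC1 factor, by -1.64 ± 0.18 (5.82e-04), and Irf8, required for cDC1 development and for Il12b transcription, by -1.32 ± 0.16 (8.50e-04). Among the higher ones were the lymphocyte factors Eomes (70.2 CPM in SSMs and 1.98 CPM in MSMs, 5.17 ± 0.32, 5.06e-05) and Tbx21 (2.02 ± 0.16, 1.48e-04), of which Eomes is also among the NK cell markers above. Zeb2 was the factor called between the nodes in SSMs, higher in tdLNs (1.31 ± 0.18, edgeR adjusted p = 0.00541), where 3.16% of all genes were called.

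Of 13 sensors and adaptors upstream of interferon beta, 4 were higher and 1 lower in SSMs, in each node. Over all genes, 7.33% were higher and 6.65% lower in ndLNs, and 5.55% and 3.82% in tdLNs. The medians of the list were 0.20 in ndLNs and 0.58 in tdLNs, beside 0.09 and 0.02 over all genes. The lower sensor gene was Tlr3, the receptor for double-stranded RNA and itself a cDC1 marker, with 3.34 CPM in SSMs and 162 CPM in MSMs from ndLNs (-5.60 ± 0.31, edgeR adjusted p = 3.26e-05). Ddx58, which encodes the RNA sensor RIG-I, gave 124 and 21.0 CPM (2.64 ± 0.27, 4.59e-04), and Tmem173, which encodes STING, 136 and 46.5 CPM (1.55 ± 0.15, 2.92e-04). Myd88, the adaptor of most Toll-like receptors, was higher in tdLNs than in ndLNs of SSMs (257 and 101 CPM, 1.36 ± 0.15, edgeR adjusted p = 0.00294), where 3.16% of all genes were called.

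Known targets of interferon gamma did not move in one direction. Of 14, 4 were higher and 2 lower in SSMs from ndLNs, and 5 were higher and 1 lower in tdLNs. Over all genes, 7.33% were higher and 6.65% lower in ndLNs, and 5.55% and 3.82% in tdLNs. Igtp, an interferon-inducible GTPase, gave 137 and 32.5 CPM in SSMs and MSMs from ndLNs (2.09 ± 0.23, edgeR adjusted p = 6.32e-04), whereas Ciita, the MHC class II transactivator, gave 31.7 and 228 CPM (-2.84 ± 0.18, 5.04e-05) and the chemokine Cxcl9 gave 24.8 and 316 CPM (-3.75 ± 0.44, 8.34e-04). Ciita was the target called between the nodes, higher in SSMs from tdLNs (170 CPM) than from ndLNs (2.42 ± 0.18, edgeR adjusted p = 0.0011), where 3.16% of all genes were called. The median of the targets was 0.61 in ndLNs and 1.04 in tdLNs for SSMs against MSMs, beside 0.09 and 0.02 over all genes.

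Of 26 other cytokines of these families, 16 could be tested, and 10, among them Ifna2, Ifne, Ifnl2, Ifnl3 and Il9, had too few counts. Of the 16, 7 were higher in SSMs from ndLNs (7.33% of all genes) and 4 in tdLNs (5.55%), and the others were not called. The medians were 1.25 and 0.87, beside 0.09 and 0.02 over all genes. Between nodes in SSMs, 3 of the 16 were called, against 3.16% of all genes. Il22, which IL-23 induces in innate lymphoid cells, gave 368 and 444 CPM in SSMs and 3.54 and 1.78 CPM in MSMs from ndLNs (7.29 ± 0.34, edgeR adjusted p = 2.17e-05), and it was lower in SSMs from tdLNs, at 85.0 and 58.6 CPM (-2.53 ± 0.25, 0.00224). Osm, a relative of IL-6, gave 219 and 52.5 CPM (2.04 ± 0.15, 9.93e-05), and was higher in SSMs from tdLNs (572 CPM, 1.42 ± 0.14, 0.0023), as was Il18, which acts together with IL-12 on NK cells (65.7 and 17.1 CPM, 1.98 ± 0.28, 0.0069).

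To see which genes vary across the 8 libraries as the cytokines do, Pearson's r was computed on log2(CPM + 0.5) against 12268 genes with a mean CPM of at least 1. The closest gene to Il12b was Mab21l3 (r = 0.999), followed by Tbc1d8 and Ccne1 (both 0.996), and all 3 had higher means in MSMs. Ifng was closest to Csf1 (r = 0.990), Paxx (0.983) and Arl4d (0.981), and Ebi3 to Aagab (0.987), Ahr (0.985) and Itga8 (0.985). For Il23a the closest was Rapgef5 (0.992), for Il27 Sp1 (0.981), for Il15 Ufc1 (0.994), and for Il6 Mtif2 (0.950). Among the members, Il12b and Ebi3 had r = 0.869 and Il12b and Ifng r = -0.908. The 8 points share 2 pools and 2 subsets that stand far apart, so these values describe likeness of pattern and carry no test. Il12a and Ifnb1 had means under 1 CPM and were not compared in this way.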

How the data were processed

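RNA was sequenced from sorted SSMs and MSMs of tdLNs and ndLNs. The authors made libraries with SMART-Seq v4 and deposited raw counts per gene for 16 columns, which are 8 libraries on 2 lanes. The submitters' processing notes name bcl2fastq 2.20.0.422, Trimmomatic 0.36, STAR 2.5.3a and GRCm38. The counting tool, its strand setting and the annotation release are not given in the sources used here. All columns were used, and lanes were summed, since they differed by about the sampling noise (chi-square per degree of freedom 0.955 to 1.02, against 29.3 to 53.1 between libraries of a group).

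Genes with at least 10 counts in total and detection in at least 2 columns were normalized by TMM and fitted in edgeR 4.0.16 (R 4.3.3) with group and pool, or with pool, node and subset. The quasi-likelihood test was used, with Benjamini-Hochberg adjustment over 21085 genes and a threshold of 0.01. SE of a log2 fold change is its absolute value divided by the square root of the F statistic of that test. It rests on the spread over all libraries in the model, while n is the number of libraries per group. The study used a Holm adjustment, lanes as samples and a mean count over 100. RPKM is CPM per kilobase of exon in GENCODE M21, which also supplied symbols and GRCm38 coordinates. The libraries held 42972328 to 48130352 counts. Scripts were tested on simulated data.

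Pool numbers come from the labels, and the study states that a pool of mice gave all of its samples, so pool was kept in the model as a block. Deviations of same-numbered libraries from their group means correlated weakly, with r between -0.15 and 0.164 over 10000 genes.

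Alternatives were the DESeq2 1.42.0 Wald test, its size factors, other filters, single lanes, no block, other thresholds and each library left out. All 9 members are described whatever their values. From the pathway lists up to 4 genes were taken by smallest adjusted p together with those called between nodes. Ifna2, Ifne, Ifnl2, Ifnl3, Il9, Ncr1, Cd3e, Cd8a, Kit, Lyz2, Klrk1, Il7r, Naaa, Cd83, Cpa3, Relb, Il12rb1, Il6st, Batf3 and Irf8 were singled out once their values were known. The members and lists were chosen with earlier results of these data known. One listed gene is not reported here.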

Additional observations from a re-analysis of the deposited data

Results flagged for a closer look

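For 4 of 9 members, the difference between tdLN and ndLN of the same pool was above 0 in both pools of SSMs and below 0 in both pools of MSMs. This pattern or its reverse, with both pools of SSMs below 0 and both pools of MSMs above 0, was seen in 10.9% of all genes tested. The interaction of subset and node, which tests this difference, gave log2 values of 5.74 for Il12a, 0.659 for Ebi3, 2.35 for Il6 and 2.54 for Ifng, and none of them passed the threshold (edgeR adjusted p = 0.126, 0.412, 0.139 and 0.287). DESeq2 called the interaction for Il6, not for Il12a, Ebi3 or Ifng. The Il12a values rested on 0 to 120 counts per library, and the Ifng value of MSMs from tdLNs of pool 1 on 3 counts.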

How the results depend on the processing

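The 9 calls named for members, which are Il12b, Il23a, Ebi3 and Ifng in ndLNs, Il12b and Ifng in tdLNs, and Il12b, Ebi3 and Ifng over both nodes, held in each of the 7 other fits, among them the fit with no replicate block, which changed no call among the members. All 9 were lost with a Holm adjustment, which left 0 members in ndLNs, in tdLNs and over both nodes. The DESeq2 Wald test called 2 members between nodes in SSMs and 2 in the interaction, and an adjusted p under 0.05 gave 1 between nodes in SSMs. Leaving out 1 library at a time gave 0 to 4 members in ndLNs, 1 to 2 in tdLNs, 2 to 3 over both nodes and 0 otherwise; none was left in ndLNs without MSM ndLN replicate 1.

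Over all genes, the numbers called in ndLNs, in tdLNs, between nodes in SSMs, between nodes in MSMs, in the interaction, between subsets over both nodes and between nodes over both subsets were 2948, 1977, 666, 5, 8, 3254 and 51. The DESeq2 Wald test gave 4506, 3548, 2079, 600, 760, 4891 and 1076, Holm 207, 108, 7, 0, 1, 252 and 6, and an adjusted p under 0.05 gave 4937, 3534, 2034, 97, 216, 5562 and 538. For nodes in MSMs, the fit with no replicate block gave 9, the edgeR expression filter 14, lane 3 alone 24 and lane 4 alone 17. For nodes over both subsets these gave 122, 81, 86 and 101, in the same order of settings. The interaction gave 25 on lane 3, 29 on lane 4 and 4 with DESeq2's size factors. Without 1 library, the counts were 1143 to 2239, 512 to 1979, 2 to 353, 0 to 3, 0 to 0, 2026 to 2582 and 2 to 50. The cause was not tested.

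Among log2 values of members that were not called, some changed sign. By DESeq2, nodes in MSMs gave -0.0006032 for Il12b (-0.002167 with its size factors) and -0.1612 for Il23a (-0.08228 on lane 3), and nodes over both subsets gave 0.8604 for Il12a (0.1067 on lane 3), -0.5305 for Ifng and 0.8658 for Ifnb1. Leaving out 1 library, Il27 ranged from -2.385 to 1.933 in ndLNs, from -0.6818 to 0.9889 in tdLNs, from -0.9654 to 0.405 over both nodes, from -0.384 to 3.714 between nodes in MSMs and from -1.796 to 2.509 in the interaction. In tdLNs, Ifnb1 ranged from -0.7756 to 7.99, Il15 from -0.4262 to 0.01327 and Il23a from -1.094 to 0.1174. Over both nodes, Il12a ranged from -2.159 to 0.183 and Il6 from -0.3579 to 0.7375. Between nodes, Il12b ranged from -0.2244 to 1.413 in SSMs, from -0.6196 to 0.5523 in MSMs, from -0.07123 to 0.4938 over both subsets and from -0.2406 to 1.397 in the interaction, Ifnb1 from -3.755 to 1.628 in SSMs, from -0.1117 to 6.939 in MSMs and from -1.917 to 1.967 over both subsets, and Il23a from -0.662 to 0.7833 in MSMs. Over both subsets, Ebi3 ranged from -0.2381 to 0.05699, Ifng from -0.2932 to 0.6585, Il12a from -0.9758 to 1.431 and Il6 from -0.3506 to 0.5919. Ifnb1, Il12a, Il23a and Il27 had at most 244 counts in any library, which limits their precision.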
